A study of Rattus norvegicus with 30 samples.

Results

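Transcripts of 10 genes of the YAP/TEAD pathway were followed through the livers of 30 rats that had lost different amounts of liver. The genes were chosen by name, but with earlier results of these data known, so counts among them are descriptions. They include the transcriptional co-activators Yap1 and Wwtr1 (the gene of TAZ) and their DNA-binding partner Tead1. The rest are the target genes Ccn1 (Cyr61), Ccn2 (Ctgf), Ankrd1, Crim1, Amotl2, Lats2 and Nuak2. All 10 were on the array, each as 1 probe set with a single gene symbol, among 18166 genes named in this way. The animals were wild-type Wistar rats, 6 per group. Surgeons removed 30%, 70% or 90% of the liver by partial hepatectomy in the groups called PH30, PH70 and PH90. A further group had a sham operation, and the last, the study's control, no operation (unoperated). Rats were assigned at random, and liver was taken 24 hours after the operation, frozen, and a small piece of it used for total RNA. One Affymetrix Rat Gene 2.0 ST array was hybridised per rat. No age, sex or weight is given in the sources used here. The unoperated rats carry the highest rat numbers, so an effect of rat order and the lack of surgery cannot be told apart.

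YAP and TAZ carry no DNA-binding domain of their own and act through the TEAD factors on the promoters and enhancers of their targets. The Hippo kinase cascade, which ends in LATS1 and LATS2, phosphorylates both proteins and keeps them in the cytoplasm. Tension on the actin cytoskeleton and cell spreading release them into the nucleus. In mouse liver, active YAP drives hepatocyte growth and enlarges the organ, which is why the pathway is studied in regeneration. Since this control acts on the proteins, a transcript of Yap1 does not measure its activity, and the target genes are the usual readout. Ccn1, Ccn2 and Ankrd1 are also targets of other factors, among them serum response factor.

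Promoter windows of 4 targets are given because these genes contrast in what the arrays found: Ccn1 and Ccn2, which rose after the largest resection, and Amotl2 and Nuak2, which did not pass the test there. Each window runs from 250 bases before to 50 bases after the start of the gene in RefSeq's rat assembly GRCr8, 5′ to 3′ on the gene's strand. Capitals mark the TEAD hexamer GGAATG or its reverse complement CATTCC.
Ccn1: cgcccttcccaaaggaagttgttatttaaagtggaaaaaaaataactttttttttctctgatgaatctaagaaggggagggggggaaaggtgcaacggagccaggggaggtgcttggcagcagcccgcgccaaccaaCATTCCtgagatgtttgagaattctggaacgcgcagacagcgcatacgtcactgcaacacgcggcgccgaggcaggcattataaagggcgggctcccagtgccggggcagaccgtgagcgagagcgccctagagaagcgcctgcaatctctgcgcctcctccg
Ccn2: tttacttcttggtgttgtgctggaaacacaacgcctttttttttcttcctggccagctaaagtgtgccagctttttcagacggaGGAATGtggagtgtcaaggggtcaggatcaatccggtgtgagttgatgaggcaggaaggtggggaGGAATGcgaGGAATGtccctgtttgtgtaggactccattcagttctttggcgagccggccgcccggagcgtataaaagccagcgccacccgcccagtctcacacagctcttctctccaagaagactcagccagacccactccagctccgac
Amotl2: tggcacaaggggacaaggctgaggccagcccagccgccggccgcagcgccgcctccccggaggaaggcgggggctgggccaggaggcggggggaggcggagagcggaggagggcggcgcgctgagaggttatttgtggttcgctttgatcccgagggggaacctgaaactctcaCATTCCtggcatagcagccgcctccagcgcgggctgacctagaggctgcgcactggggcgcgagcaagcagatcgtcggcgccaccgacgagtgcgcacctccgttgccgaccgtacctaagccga
Nuak2: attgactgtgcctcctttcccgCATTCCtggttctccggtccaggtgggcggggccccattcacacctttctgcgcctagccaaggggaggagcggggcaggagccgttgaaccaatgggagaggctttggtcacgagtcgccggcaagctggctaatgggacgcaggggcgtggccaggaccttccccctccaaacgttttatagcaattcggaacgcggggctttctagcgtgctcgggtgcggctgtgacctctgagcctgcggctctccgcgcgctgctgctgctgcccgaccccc
These windows lie at chr2:237225640-237225939 on the minus strand (Ccn1), chr1:22624565-22624864 on the minus strand (Ccn2), chr8:112182376-112182675 on the plus strand (Amotl2) and chr13:46305756-46306055 on the plus strand (Nuak2). The Ccn2 window holds 3 hexamers, with first bases at -166, -101 and -92 from the start, all in the forward direction. The Ccn1 window holds 1, at -113, the Amotl2 window 1, at -76, and the Nuak2 window 1, at -228, all reversed. Of the 10 genes, 7 had a window in the table. Ankrd1, Lats2 and Tead1 had none. The hexamer was found in 5 of these 7, the fifth being Yap1 (1 copy, at -116), and was absent from the windows of Wwtr1 and Crim1. On both strands, 14.2% of all 33469 windows of 300 bases hold it. An AP-1 site (TGANTCA) is in 7.33% of all windows, a CREB site (TGACGTCA) in 1.83% and a CArG box, the site of serum response factor, in 1.64%. The 7 windows held 0 of these other sites. Of the 5 genes with a hexamer, Ccn1, Ccn2 and Yap1 were called higher in PH90 against sham and Amotl2 and Nuak2 were not. Wwtr1 and Crim1, which hold none, were called higher, with the difference of Wwtr1 (0.24) as small as that of Amotl2 (0.26).

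The deposited values are log2 signals of which each probe set's median over the 30 arrays was subtracted. A value of 0 is therefore the middle rat for that gene, differences between rats are kept, and neither the levels of different genes nor the presence of tissue markers can be read from them. Tests were limma fits over all arrays, with 1 spread per gene shared by the 5 groups. A gene was called at a Benjamini-Hochberg adjusted p, over the 18166 genes, below 0.05. In Ccn2 and Ankrd1 the PH90 rats spread most, and the shared spread gives a smaller SE than PH90 and sham rats alone would. Each pair of groups was compared as the mean of the first minus that of the second. The 3 comparisons with sham share the 6 sham rats. PH30 rat 95 and PH70 rat 139 stood apart from their groups, with a mean correlation over all genes of -0.102 and -0.096 to the other rats of the group, against 0.158 to 0.230 for the other PH30 rats and 0.458 to 0.512 for the other PH70 rats. Markers of dividing cells also set them apart: the mean of 6 such genes was 3.089 in rat 95, against -0.353 to 1.501 in the other PH30 rats, and -0.194 in rat 139, against 1.841 to 3.085 in the other PH70 rats. These values go against the labels of both rats, and whether the labels were exchanged was not tested. Results are given with both rats. Without them, 7 of the 10 genes were called in PH90 against sham, 1 in PH70 against sham and 0 in PH30 against sham, the same counts as with them. Over all 18166 genes the counts without them were 6623, 4301 and 1984 in the same order, against 6290, 3386 and 1005 with them. A call that changed is named.

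After 90% resection, 7 of the 10 genes rose against sham and 0 fell. The matricellular genes Ccn1 and Ccn2 and the cardiac ankyrin repeat gene Ankrd1 rose by 2.30-fold to 4.11-fold, and Crim1, Tead1, Yap1 and Wwtr1 by 1.18-fold to 1.38-fold. Amotl2, Lats2 and Nuak2 did not pass the test. The background was high in this comparison, in which 34.6% of all genes were called, 19.9% as higher and 14.7% as lower. The median of the 10 genes was 0.376 on the log2 scale, against -0.002 over all genes. At an unadjusted p below 0.05, 8 of the 10 passed, as did 41.0% of all genes. In the exact permutation test of 6 against 6 rats, whose smallest possible p is 0.0022, 8 of the 10 and 40.1% of all genes had p below 0.05. In 4 of the 10, Ccn1, Ccn2, Ankrd1 and Wwtr1, and in 20.6% of all genes, no PH90 rat overlapped with a sham rat.

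Ccn1 encodes a secreted matrix protein that binds integrins and is among the earliest genes to respond to YAP and to serum. Its centred log2 value ran from 1.09 to 2.51 in PH90 rats (median 1.67) and from -0.65 to -0.08 in sham rats (median -0.30). Every PH90 rat was more than 1 log2 unit above the highest sham rat. The means were 1.73 ± 0.48 in PH90 and -0.31 ± 0.19 in sham rats (SD, n = 6 each), a difference of 2.04 ± 0.26 (SE; 4.11-fold; limma adjusted p = 2.3e-07). The smaller resections lay lower. Values ran from -0.44 to 1.84 in PH30 rats (median -0.04) and from -0.56 to 0.73 in PH70 rats (median 0.02). All PH90 rats lay above all PH70 rats, while a single PH30 rat, rat 99 at 1.84, lay inside the PH90 range.

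Ccn2, connective tissue growth factor, is the related matrix protein best known for its part in fibrosis. Its values ran from 0.65 to 3.41 in PH90 rats (median 1.64) and from -0.33 to 0.08 in sham rats (median -0.03). The groups did not overlap, and the PH90 rats spread over nearly 3 log2 units. The means were 1.70 ± 0.98 in PH90 and -0.10 ± 0.18 in sham rats (SD, n = 6 each), and the difference was 1.80 ± 0.28 (SE; 3.47-fold; limma adjusted p = 3.9e-06). PH30 rats ran from -0.26 to 0.74 and PH70 rats from -0.40 to 0.68, so the top rat of each reached just above the lowest PH90 rat.

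Ankrd1 encodes a nuclear and sarcomeric ankyrin repeat protein that many laboratories use as a YAP reporter gene. Its values ran from 0.21 to 2.18 in PH90 rats (median 0.98) and from -0.38 to 0.14 in sham rats (median -0.12). The 6 PH90 rats were far apart, at 0.21, 0.28, 0.89, 1.07, 1.88 and 2.18, and the lowest lay just above the highest sham rat. The difference was 1.20 ± 0.22 (SE; 2.30-fold; limma adjusted p = 5.5e-05). PH30 rats reached 0.26 and PH70 rats 0.50, inside the lower end of the PH90 range.

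**Figure D1:**
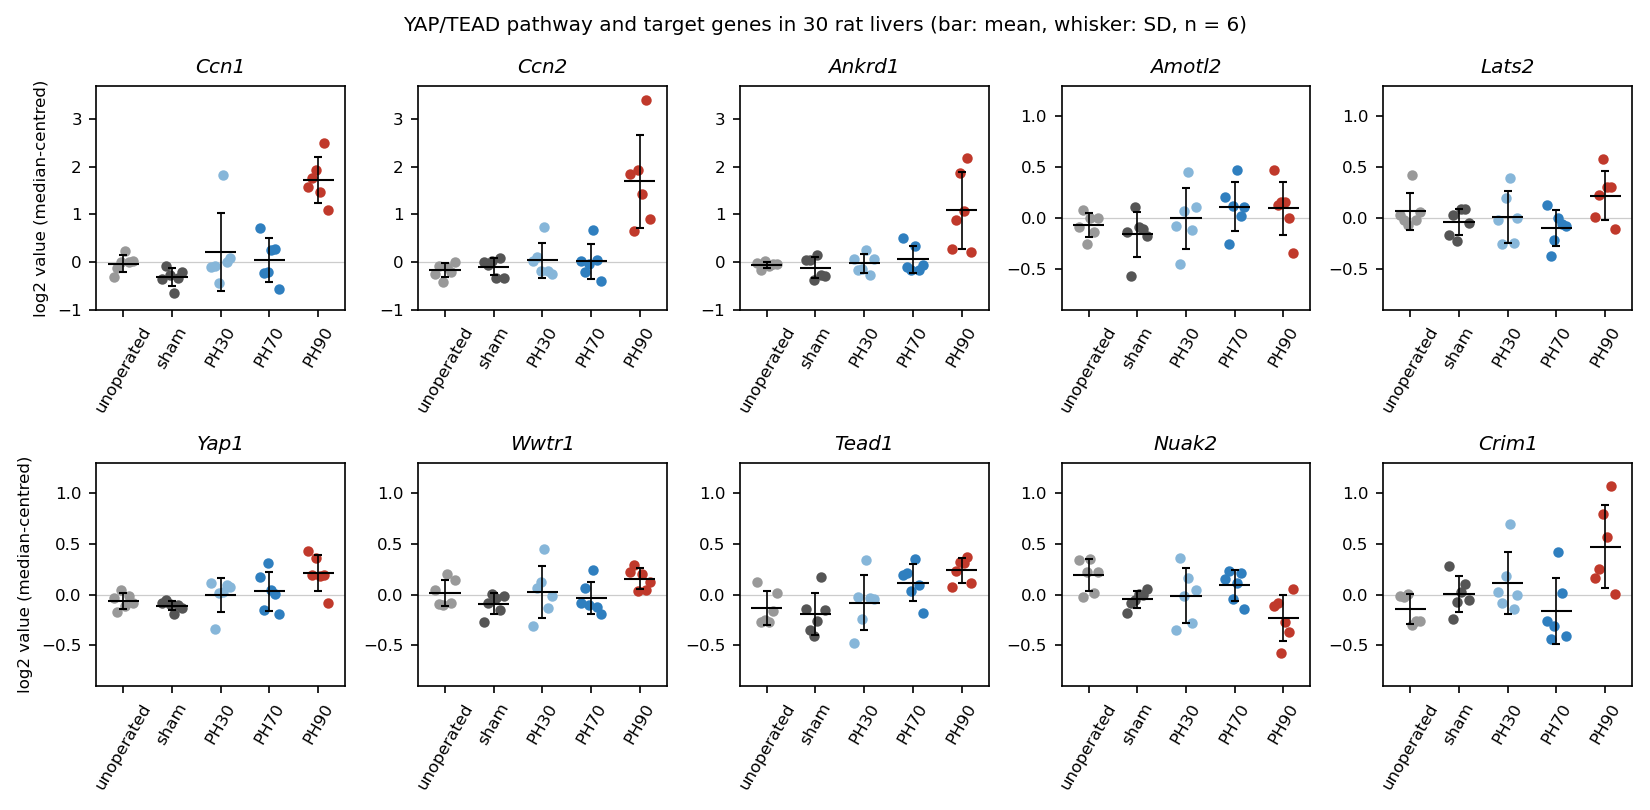
Centred log2 value of each of the 10 genes in every rat, by group from unoperated through sham, PH30 and PH70 to PH90, with 6 points per group, the group mean as a bar and the SD as whiskers. The y-axis is wider for Ccn1, Ccn2 and Ankrd1 than for the others. In those 3 genes the PH90 rats lie above all sham rats, and PH30 rat 99 is the high point of its group for Ccn1, at 1.84.

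The remaining targets moved less, or in no direction that passed. Crim1, a membrane protein with cysteine-rich repeats that binds bone morphogenetic proteins, ran from 0.00 to 1.07 in PH90 rats (median 0.41) and from -0.24 to 0.28 in sham rats (median -0.01). Its groups overlapped, and the difference was 0.47 ± 0.16 (SE; 1.38-fold; limma adjusted p = 0.021). Without PH90 rat 106, its highest, the difference was 0.35 (adjusted p = 0.082). It also missed the threshold without PH90 rat 61 (0.061) or sham rat 45 (0.055). Amotl2, an angiomotin that holds YAP at cell junctions and is itself a target, ran from -0.34 to 0.47 in PH90 rats and from -0.57 to 0.11 in sham rats. The difference of 0.26 did not pass (95% interval -0.01 to 0.52; limma adjusted p = 0.14). Lats2, the inhibitory kinase that YAP induces as feedback, ran from -0.11 to 0.59 in PH90 rats (median 0.26) and from -0.23 to 0.09 in sham rats (median -0.01). Its difference was 0.26 (95% interval 0.03 to 0.49), with a limma adjusted p of 0.074. Nuak2, a kinase of the AMPK family that acts on myosin, was the only one of the 10 with a lower mean in PH90 than in sham rats, by -0.18 (95% interval -0.40 to 0.03; limma adjusted p = 0.2). Its values ran from -0.58 to 0.05 in PH90 rats and from -0.18 to 0.05 in sham rats. Against unoperated rats, in which Nuak2 ran from -0.02 to 0.35, the difference was -0.42 and passed (limma adjusted p = 0.0021).

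Transcripts of the co-activators and of their DNA-binding partner rose by smaller amounts. Yap1 ran from -0.08 to 0.43 in PH90 rats (median 0.20) and from -0.19 to -0.06 in sham rats (median -0.10). Only PH90 rat 111, at -0.08, lay inside the sham range. The difference was 0.32 ± 0.08 (SE; 1.25-fold; limma adjusted p = 0.0021). Tead1 ran from 0.07 to 0.37 in PH90 rats (median 0.27) and from -0.41 to 0.17 in sham rats (median -0.21). Sham rat 141, at 0.17, lay above PH90 rats 39 and 111, and the other sham rats lay below 0. Its difference was 0.43 ± 0.11 (SE; 1.34-fold; limma adjusted p = 0.0022). Wwtr1 ran from 0.04 to 0.29 in PH90 rats (median 0.16) and from -0.27 to 0.01 in sham rats (median -0.06). The groups did not overlap, but they lay close, and the difference was 0.24 ± 0.09 (SE; 1.18-fold; limma adjusted p = 0.037). Yap1 and Tead1 were called in all 19 alternative settings of this comparison, the unoperated rats in place of sham among them. Wwtr1 was lost in 7 of them, 6 of these leaving out 1 rat, namely PH90 rat 39 (0.07), 43 (0.086) or 87 (0.065) or sham rat 41 (0.097), 45 (0.054) or 141 (0.067), given as adjusted p. Against unoperated rats its difference was 0.14 (adjusted p = 0.29).

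After 70% resection, the standard model of regeneration, 1 of the 10 genes was called against sham, in a comparison in which 18.6% of all genes were (10.5% higher, 8.15% lower). That gene was Tead1, which ran from -0.18 to 0.35 in PH70 rats (median 0.14) and from -0.41 to 0.17 in sham rats (median -0.21). The difference was 0.31 ± 0.11 (SE; 1.24-fold; limma adjusted p = 0.048). The call did not hold when any one of 10 rats was left out, 5 from each group: adjusted p was 0.092, 0.094, 0.055, 0.13 and 0.069 without PH70 rats 37, 58, 59, 97 and 136, and 0.062, 0.11, 0.12, 0.086 and 0.064 without sham rats 41, 45, 112, 114 and 143. Against unoperated rats the difference was 0.25 (adjusted p = 0.12), and without rats 95 and 139 it was 0.37 (adjusted p = 0.015). Ccn1 differed by 0.36 (95% interval -0.18 to 0.89), Ccn2 by 0.12 (-0.45 to 0.68) and Ankrd1 by 0.18 (-0.27 to 0.63), and none of these passed. Amotl2 had an unadjusted p of 0.046 and an adjusted p of 0.16, with a difference of 0.27. The median of the 10 genes was 0.139, against -0.012 over all genes.

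After 30% resection, 0 of the 10 genes were called against sham, at a background of 5.53% of all genes (2.2% higher, 3.34% lower). At an unadjusted p below 0.05 the count was also 0 (20.1% of all genes), and in the exact permutation test 0 (19.4%). All 10 means lay above those of sham rats, by 0.03 to 0.53, with a median of 0.108 against 0.011 over all genes. Against unoperated rats 8 of the 10 means were higher and 0 were called, at a background of 9.85%. The largest difference from sham was that of Ccn1, 0.53 (95% interval -0.01 to 1.07; limma adjusted p = 0.26). It rested on rat 99: without this rat Ccn1 differed by 0.21 (adjusted p = 0.63) and Ccn2 by -0.00 (adjusted p = 1).

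**Figure D2:**
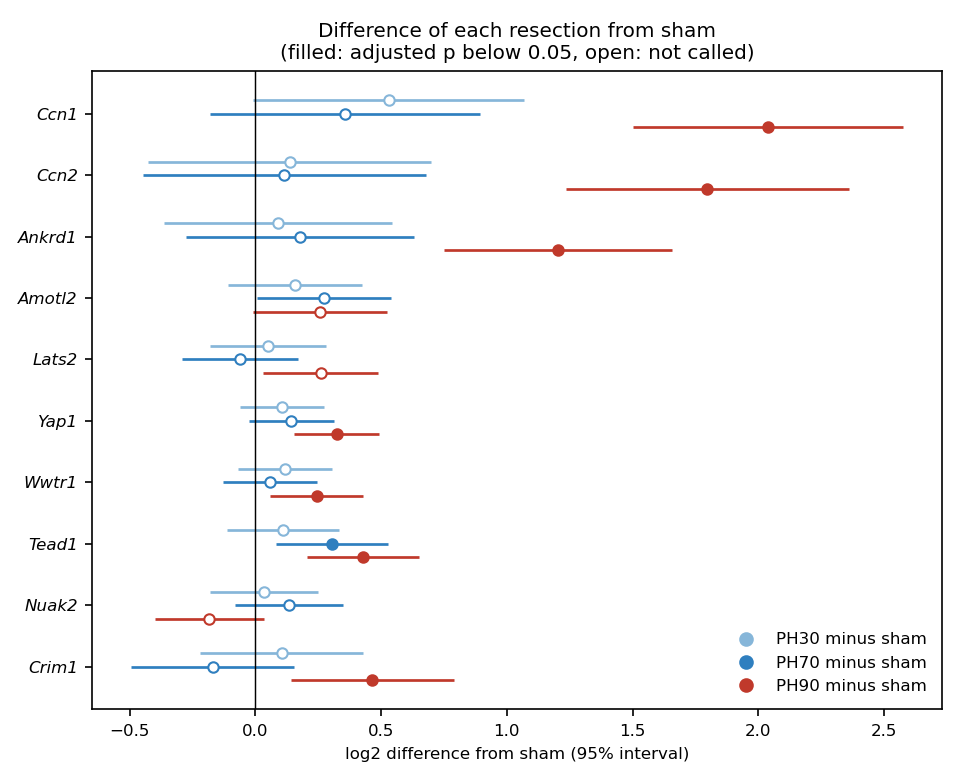
Difference of each gene between PH30, PH70 or PH90 and sham, on the log2 scale with 95% intervals, from fits over all 30 arrays. Filled points were called at an adjusted p below 0.05: 7 genes in PH90, Tead1 alone in PH70 and 0 in PH30.

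The resections were also compared with each other. These differences of means do not involve the sham rats, but the spread behind each SE and p was still shared with the sham and unoperated rats. PH90 exceeded PH70 in Ccn1, Ccn2, Ankrd1, Crim1 and Lats2 and was lower in Nuak2, so 6 of the 10 genes were called, at a background of 24.5% of all genes (14.1% higher, 10.4% lower). Ccn1 differed by 1.68 (3.21-fold; limma adjusted p = 1.2e-05), Ccn2 by 1.68 (adjusted p = 2.4e-05) and Ankrd1 by 1.03 (adjusted p = 0.00071). Crim1 differed by 0.64 (adjusted p = 0.0029), and PH70 had its lowest mean. Lats2 ran from -0.11 to 0.59 in PH90 rats and from -0.37 to 0.13 in PH70 rats, and differed by 0.32 (adjusted p = 0.034). Nuak2 ran from -0.58 to 0.05 in PH90 rats and from -0.14 to 0.24 in PH70 rats, and differed by -0.32 (adjusted p = 0.025). The calls of Lats2 and Nuak2 hung on single rats. Lats2 was lost without PH70 rat 58 or 59 or PH90 rat 43, 61, 87 or 106, with adjusted p from 0.05 to 0.12. Nuak2 was lost without PH70 rat 58 or 136 or PH90 rat 61 or 106, with adjusted p from 0.059 to 0.091. Yap1 (0.18; 95% interval 0.01 to 0.35; adjusted p = 0.12), Wwtr1 (0.19; -0.00 to 0.37; 0.16) and Tead1 (0.12; -0.10 to 0.34; 0.51) did not pass between these resections. Amotl2 did not either, with a difference of -0.01 (-0.28 to 0.25; 0.96).

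Against PH30, 5 of the 10 genes were higher in PH90 and 0 lower, at a background of 31.5% (18.4% higher, 13.1% lower). These were Ccn1 (1.51; limma adjusted p = 3.4e-05), Ccn2 (1.66; 1.7e-05), Ankrd1 (1.11; 0.00019), Tead1 (0.32; 0.025) and Yap1 (0.22; 0.042). Without PH30 rat 99 the Ccn1 difference was 1.83 (adjusted p = 1.8e-08). Yap1 was no longer called without rats 95 and 139 (0.15; adjusted p = 0.11), and leaving out rats singly ended the call for PH30 rat 95 (0.14), 98 (0.057) or 99 (0.054) and PH90 rat 39 (0.12), 43 (0.055), 61 (0.1), 87 (0.055) or 106 (0.057), given as adjusted p. Tead1 was lost without PH30 rat 65 (0.093) or 98 (0.061) or PH90 rat 106 (0.056). PH70 and PH30 differed in 0 of the 10 genes at a background of 2.27% (1.76% higher, 0.512% lower), and 0 also passed at an unadjusted p below 0.05 (17.5% of all genes) or in the exact test (12.4%). The 95% intervals were widest for Ccn2, at -0.58 to 0.54, and narrowest for Yap1, at -0.13 to 0.21.

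The sham operation itself was set against no operation. Of the 10 genes, 0 were called, at a background of 0.738% (0.308% higher, 0.429% lower), and sham rats had the lower mean in 8. Nuak2 had the smallest unadjusted p, 0.034, at a difference of -0.23 (95% interval -0.45 to -0.02; limma adjusted p = 0.39). Ccn1 differed by -0.28 (adjusted p = 0.78). With unoperated rats in place of sham, PH90 differed in 7 of the 10 genes (6 higher, Nuak2 lower) at a background of 33.8% (19.3% higher, 14.5% lower). Ccn1 was then higher by 1.76, Ccn2 by 1.87 and Ankrd1 by 1.14.

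Ordered by group mean, PH90 was highest in 8 of the 10 genes and lowest in 1, Nuak2. In Amotl2, PH70 was highest, with PH90 next. Sham was lowest in 6 genes. Of the 40 pairs of neighbouring means in these orders, 3 were called by the limma fit: Ccn1 and Ccn2 in PH90 over PH30, and Ankrd1 in PH90 over PH70. In each of these the rats of both groups overlapped. No step below PH90 was called. The order in Ankrd1, Yap1 and Tead1 followed the size of the resection (sham, unoperated, PH30, PH70, PH90), whereas in Ccn1 and Ccn2 PH30 stood above PH70.

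**Figure D3:**
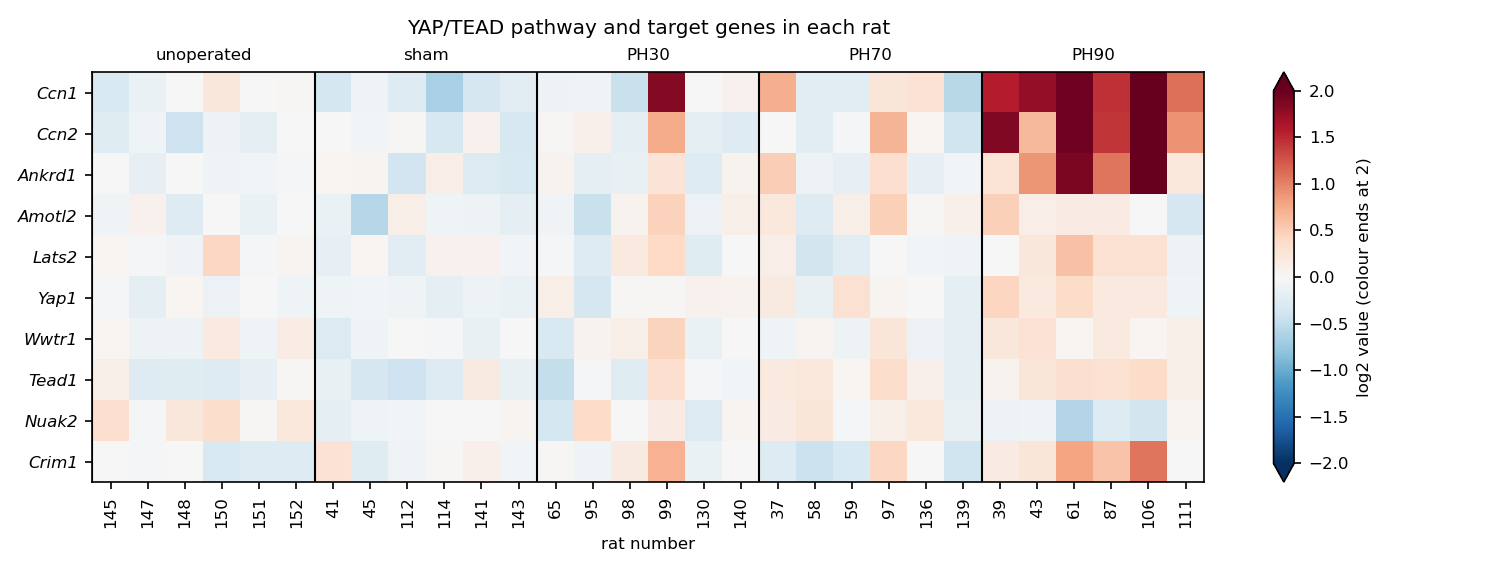
Centred log2 values of the 10 genes (rows) in the 30 rats (columns, by group), with colours ending at 2. Ccn1 and Ccn2 are at 0.65 or above in every PH90 rat, Ankrd1 is low in PH90 rats 111 (0.21) and 39 (0.28), and PH30 rat 99 is the highest of its group in 8 of 10 genes.

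Single rats differed across many of the genes at once. PH30 rat 99 was highest of its group in 8 of the 10 genes, all but Yap1 and Nuak2. Its mean over the 10 genes was 0.536, against -0.130 to 0.007 in the other PH30 rats. Its mean correlation over all genes with the other PH30 rats, 0.198, lay inside their range. In PH90, rat 106 was highest in 5 genes (mean 0.971) and rat 111 lowest in 6 (mean 0.197), and the other 4 rats had means from 0.454 to 0.744. In PH70, rat 97 was highest in 5 (mean 0.292) and rat 139 lowest in 6 (mean -0.209). Leaving out rat 106 took Ccn2 in PH90 against sham to 1.45 and Ankrd1 to 0.98, and leaving out rat 111 took them to 1.96 and 1.38. Both stayed called, and Ccn1 stayed between 1.76 and 2.17 in all alternatives.

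The 45 pairs of genes were also compared within groups, as deviations of each rat from its group mean over 30 arrays. These correlations describe rats that share a group, an array platform and a scaling, and the most widely spread rats weigh most in them. The SD was largest in PH90 for Ccn2, Ankrd1 and Crim1, in PH70 for Yap1 and in PH30 for the other genes. In 12 pairs r was above 0.5, and in 7 of all pairs without rat 99. Ccn2 and Crim1 (0.72, and 0.68 without rat 99), Ankrd1 and Crim1 (0.69 and 0.70), Ccn2 and Ankrd1 (0.64 and 0.62) and Ccn1 and Ccn2 (0.62 and 0.62) varied together. Yap1 followed the 3 main targets less, with r of 0.27 for Ccn1, 0.20 for Ccn2 and 0.22 for Ankrd1. Nuak2 ran against Yap1 (-0.43) and with Wwtr1 (0.63).

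Other genes of the pathway were counted from lists. These and the lists that follow were also chosen with earlier results of these data known, so their counts are descriptions. Of 25 listed Hippo kinases, scaffolds and TEAD partners, 20 were measured, and in PH90 against sham 7 rose and 1 fell, with a median of 0.143 against -0.002 over all genes. The 8 calls among 20 genes stand beside the 34.6% of all genes called, so the total does not set the list apart. By direction, 19.9% of all genes rose and 14.7% fell, beside the 7 and 1 of these 20. Whether the list differs from all genes in direction was not tested. In PH70 against sham 3 rose and 0 fell (10.5% and 8.15% of all genes), and in PH30 1 rose and 0 fell (2.2% and 3.34%). The direction of these small counts differed with the control group in PH70 and PH30. Against unoperated rats 0 rose and 4 fell in PH70, where 18.5% of all genes were called in either direction. In PH30 0 rose and 1 fell, where 9.85% were called. PH90 against unoperated rats had 7 higher and 3 lower, beside 19.3% and 14.5% of all genes. The gene that fell in PH90 against sham was Taok3, a kinase upstream in the cascade, by 0.74 (limma adjusted p = 1.1e-05). In the same comparison Ajuba, an adaptor that binds and restrains the LATS kinases, rose by 0.52 (adjusted p = 0.0037). Rassf1, a scaffold of the MST kinases, rose by 0.46 (adjusted p = 0.0009). Map4k4, a kinase that can stand in for the MST kinases, was higher than in sham rats after each resection, by 0.61 in PH30 (adjusted p = 0.026), 0.89 in PH70 (0.00023) and 0.46 in PH90 (0.031). Its sham mean was low, and against unoperated rats it differed by 0.18 in PH30 (adjusted p = 0.57), 0.45 in PH70 (0.055) and 0.02 in PH90 (0.96), with no call. Rassf1 in PH90 differed from unoperated rats by 0.27 (adjusted p = 0.052), while Taok3 (-0.87; 9.2e-07) and Ajuba (0.38; 0.035) were called against these too.

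Of 23 other reported YAP targets 16 were measured, and 7 rose and 3 fell in PH90 against sham, with a median of 0.180. Of all genes 19.9% rose and 14.7% fell, so the share that fell was near the background. Gadd45b, a stress-response gene, rose by 2.59 (limma adjusted p = 3.6e-10) and the growth factor gene Tgfb2 by 1.22 (adjusted p = 1.4e-05). Igfbp3, which binds insulin-like growth factors, fell by 1.99 (adjusted p = 1.5e-08) and Nt5e, which makes adenosine outside the cell, by 1.69 (adjusted p = 4.9e-09). In PH70 against sham Igfbp3 fell by 0.88 (adjusted p = 0.0044) and Nt5e by 0.98 (adjusted p = 0.00016).

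Genes of serum response factor and the immediate early response, which share inputs with the targets, were counted next. Of 17 measured, 14 rose and 0 fell in PH90 against sham (median 0.860), 4 rose in PH70 and 2 in PH30, where 19.9%, 10.5% and 2.2% of all genes rose in the same order. Tagln, a smooth muscle actin-binding protein, rose by 2.43 (limma adjusted p = 3.2e-05), Egr1 by 1.74 (0.00045), the actin cross-linker Flna by 1.57 (3.8e-07) and the AP-1 subunit Jun by 1.18 (1.8e-07). Against unoperated rats the PH90 difference of Jun was 0.62 (adjusted p = 0.0013). Of 15 measured genes of actin and adhesion, 13 rose and 0 fell in PH90 against sham (median 0.700), 4 rose in PH70 and 1 in PH30, beside the same shares of all genes. Tpm4, a tropomyosin, rose by 1.70 (1.5e-09), the small GTPase gene Rhob by 1.55 (2.8e-07), the actin monomer binder Pfn1 by 1.19 (6.7e-11) and the integrin Itgb1 by 1.07 (1.1e-08). The mean of the serum response list ran from 0.326 to 1.013 in PH90 rats and from -0.313 to -0.154 in sham rats. Rat 99 had the highest mean of the PH30 rats in this list (0.463) and in the actin list (0.206). PH90 rat 111 had the lowest in the serum response list (0.326), and rats 61 (1.013) and 106 (0.955) the highest.

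**Figure D4:**
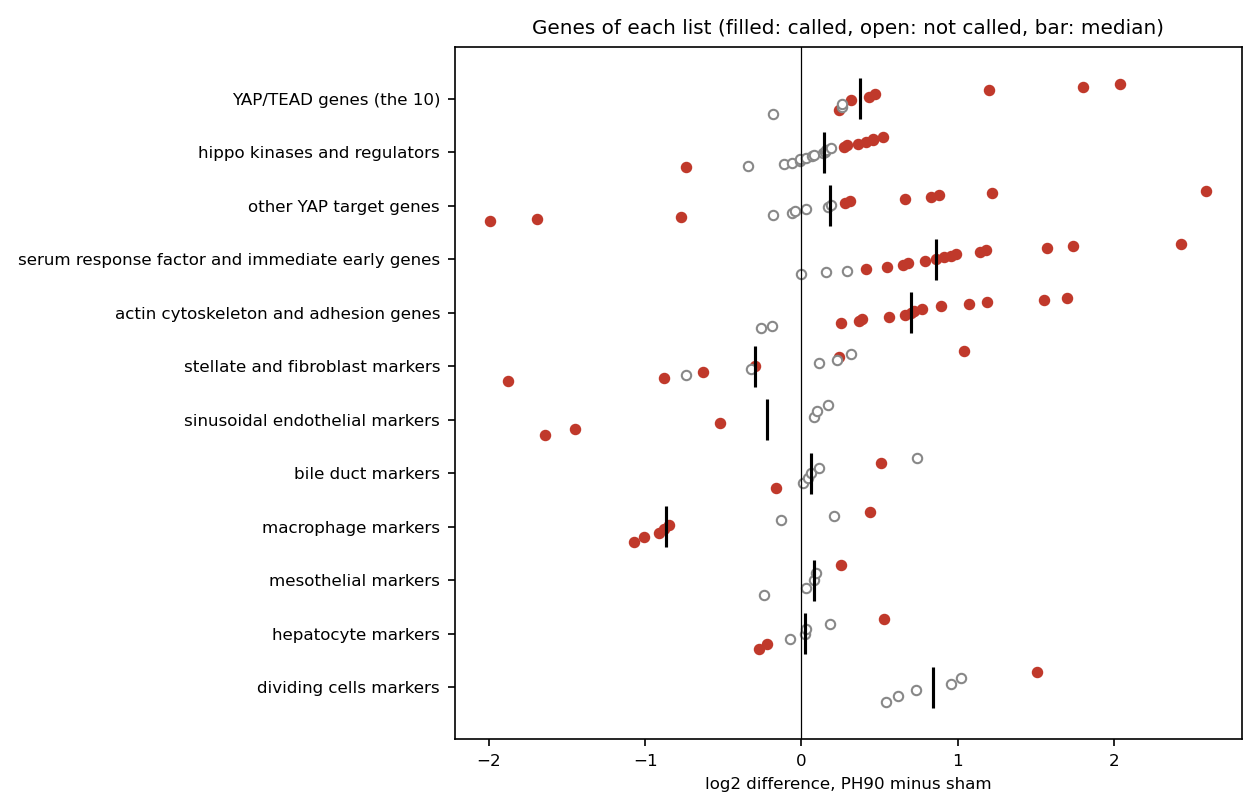
Difference of every measured gene of each list between PH90 and sham rats on the log2 scale, 1 point per gene, filled where called, with the list median as a bar. The serum response (median 0.860) and actin lists (0.700) lie mostly above 0, the other YAP targets (0.180) spread to both sides, and the macrophage markers (-0.863) lie mostly below.

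A liver piece holds several cell types, and Ccn1, Ccn2 and Ankrd1 are expressed in stellate and endothelial cells as well as in hepatocytes. In such bulk RNA, fewer cells of a type and less RNA per cell cannot be told apart. In PH90 against sham, 2 of 11 stellate and fibroblast markers rose and 4 fell (median -0.300), where 19.9% of all genes rose and 14.7% fell. These shares stand beside each count of PH90 against sham that follows. Against unoperated rats 2 rose and 4 fell as well (19.3% and 14.5% of all genes), but the median was -0.026. Their mean per array ran from -0.290 to 0.115 in PH90 rats and from -0.087 to 0.403 in sham rats. Lrat, the vitamin A-storing enzyme of quiescent stellate cells, fell by 1.88 (limma adjusted p = 2.1e-09), and Des, the muscle-type filament of the same cells, rose by 1.04 (3.9e-06). Of 6 sinusoidal endothelial markers 3 fell and 0 rose, with means from -0.569 to -0.295 in PH90 rats and from -0.162 to 0.278 in sham rats. Of 8 macrophage markers 5 fell and 1 rose, with means from -0.784 to -0.106 in PH90 rats and from -0.046 to 0.253 in sham rats. Of 7 bile duct markers 1 rose, Epcam by 0.51 (0.0021, but 0.27 with an adjusted p of 0.12 against unoperated rats), and 1 fell. Their means ran from 0.016 to 0.460 in PH90 rats and from -0.097 to 0.078 in sham rats. Against unoperated rats 1 bile duct marker rose, Spp1 by 0.88 (limma adjusted p = 0.022), and 0 fell, beside 19.3% and 14.5% of all genes. Of 5 mesothelial markers 1 rose, with means that overlapped. Of 7 hepatocyte markers 1 rose and 2 fell, with means from -0.013 to 0.089 in PH90 rats and from -0.027 to 0.096 in sham rats. PH90 rat 106, the highest for Ccn1, Ccn2, Ankrd1 and Crim1, had the lowest stellate (-0.290) and the highest bile duct mean (0.460) of its group. PH30 rat 99 had a stellate mean of -0.045, inside its group's -0.143 to 0.244, and the highest bile duct mean of its group (0.110). The stellate mean pools genes that rose and genes that fell. The part of cell composition in the rise of the targets was not tested. Of the markers of dividing cells, 6 of 6 rose in PH70 against sham (median 3.214), 4 in PH30 and 1 in PH90 (median 0.842). Of all genes 10.5%, 2.2% and 19.9% rose in the same order. These markers were lower in PH90 than in PH70 in 6 of 6 (median -2.414), as were 10.4% of all genes. Sham rats were low in these markers, with a median of -1.280 against unoperated rats and 0 called (0.738% of all genes). Against unoperated rats 6 of 6 rose in PH70 (median 1.995), but 0 were called in PH30 and 0 in PH90. In PH90 the median was -0.435, the opposite direction to that against sham. Of all genes 18.5% were called in PH70, 9.85% in PH30 and 33.8% in PH90 against unoperated rats.

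For each gene, the 2 others with the most similar pattern over the 30 arrays were sought among all named genes. These are descriptions over arrays that share a platform and a scaling, and r without PH90 (24 arrays) is given too. Ccn1 was most like Tgfb2 (r = 0.92, and 0.76 without PH90) and Flna (0.92 and 0.77). Ccn2 was most like Minpp1 (0.93 and 0.52) and Tnfrsf12a (0.93 and 0.66), and Ankrd1 most like Dio3 (0.92 and 0.43) and Btg3 (0.91 and 0.45). Crim1 was most like Tgfb3 (0.84 and 0.62) and Pdgfa (0.82 and 0.60). The pattern of Yap1 was closest to Slc39a7 (0.84 and 0.74) and Klc1 (0.82 and 0.75), and that of Tead1 to Cct6a (0.85 and 0.80) and Ptpn11 (0.84 and 0.80). For Nuak2 these were Gclc (0.80 and 0.77) and Cdkn1b (0.78 and 0.69). The nearest genes of Amotl2, Lats2 and Wwtr1 (Myo18a and Cdh3, Otud7b and Mars1, Fermt2 and Tbcel) had r from 0.68 to 0.75. Of these 20 genes 0 were among the 10.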

How the data were processed

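Liver RNA of 30 rats was measured on 1 array each. The authors deposited 1 table of log2 values for 29489 probe sets, made with RMA in Affymetrix Expression Console per the submitters' processing notes, with versions not given in the sources used here. Every probe set has a median of 0 (within 5e-07) across arrays, so the values were centred before deposit. Neither step is stated in the table: the log2 scale follows from RMA and the centring from the values. Array medians run from -0.0088 to 0.022. Signal over background is unknown, so no filter on dim probes was possible, and precision rests on 6 arrays per group.

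Probe sets with exactly 1 symbol in the platform annotation (18511, against 575 with several and 10403 with none) were averaged per gene to 18166 genes. Entrez IDs of 18394 matched RefSeq GRCr8 and changed 0 symbols. Each of the 10 genes has 1 probe set, so the alternative of single probe sets did not apply.

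limma 3.58.1 in R 4.3.3 fitted 1 mean per group to all 30 arrays (25 residual and 3.71 prior degrees of freedom), two-sided, with Benjamini-Hochberg adjustment over all genes and calls below 0.05. The steps were tested on simulated data. Single genes were also tested by a two-sided exact permutation of 6 against 6 rats. Intervals are 95%. Alternatives were fits without rats 95 and 139, of the compared groups alone, with array weights, a robust prior, re-centred arrays or without the least variable 25% of genes, with unoperated rats as controls, and without each rat in turn. The 10 genes and all lists were chosen with earlier results of these data known. Named are the 10 genes, up to 4 called genes of each list and comparison by size, and the 2 genes most like each of the 10, of which the text gives a part. Promoter windows come from RefSeq GRCr8 and were searched for motifs on both strands.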

Additional observations from a re-analysis of the deposited data

Results flagged for a closer look

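Dixon's test for a single outlying rat was applied to the 10 genes in each of the 5 groups, 50 sets of 6 rats in all, and found 4, where chance gives about 1 in 20. Ccn1 in PH30 rat 99 was 1.84, against -0.44 to 0.08 in the other PH30 rats, a gap of 0.768 of the group's range (critical value 0.625). Ccn2 in the same rat was 0.74, against -0.26 to 0.10, a gap of 0.642. Yap1 in PH30 rat 95, which stood apart from its group over all genes, was -0.34, against 0.02 to 0.11, a gap of 0.791. Lats2 in unoperated rat 150 was 0.42, against -0.07 to 0.06, a gap of 0.746.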

How the results depend on the processing

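Over the alternatives and the exact permutation test, 1360 values of single genes were set beside the fit as designed. Of these, 1274 kept direction and side of the threshold, 47 lost their call, 14 gained one and 0 reversed a call. A further 25 that were called neither way changed sign (the largest of them 0.17 in size). The permutation p is not adjusted. It gave gains in Lats2 in PH90 against sham (0.039) and Wwtr1 in PH90 against PH70 (0.045). In sham against unoperated it gave gains in Ccn1 (0.024) and Nuak2 (0.015). Ccn1, Ccn2 and Ankrd1 were called in PH90 against sham, PH70 and PH30 in every alternative run. Among counts of the 10 genes, PH70 against sham was 0 with unoperated rats in place of sham (1 as reported), and PH90 against PH30 was 3 in the fit of these groups alone (5 as reported). Leaving out each rat in turn gave 0 to 1 in PH70 against sham. PH90 against sham ran from 5 (without sham rat 45) to 9 (without PH90 rat 111). PH90 against PH70 ran from 4 (without PH70 rat 58 or PH90 rat 61 or 106) to 7 (without PH90 rat 111). PH90 against PH30 ran from 3 (without PH30 rat 98 or PH90 rat 106) to 6 (without PH30 rat 99 or PH90 rat 111). PH30 against sham, PH70 against PH30 and sham against unoperated stayed at 0. Fits that left out 1 rat also gained calls, given here with difference and limma adjusted p. In PH90 against sham these were Amotl2 (0.34, 0.037) and Lats2 (0.33, 0.024) without rat 111, and Lats2 without rat 39 (0.30, 0.046). Yap1 was gained in PH90 against PH70 without PH70 rat 59 (0.24, 0.033) or PH90 rat 111 (0.24, 0.027). In PH90 against PH30, Crim1 was gained without PH30 rat 99 (0.48, 0.017) or PH90 rat 111 (0.45, 0.029). Lats2 was gained there without PH30 rat 99 (0.29, 0.048) and Nuak2 without PH30 rat 65 (-0.28, 0.039). In fits of the compared groups alone, Lats2 in PH90 against PH70 (adjusted p = 0.065) and Yap1 (0.12) and Tead1 (0.054) in PH90 against PH30 were lost, and with array weights Yap1 in PH90 against PH30 (0.072). The cause of these changes was not tested. Backgrounds moved as well: over all genes PH70 against PH30 was 413 as reported, 2420 without rats 95 and 139, 2178 with array weights, 2 in the fit of the groups alone and 18 to 1911 leaving out 1 rat. PH30 against sham was 1005 as reported, 1984 without rats 95 and 139, 1938 with array weights, 1789 with unoperated rats and 626 to 1527 leaving out 1 rat, and sham against unoperated was 134 as reported and 70 to 139 leaving out 1 rat. Of 66 counts of other lists, 24 moved by more than 1.5 times. No paired analysis was possible because each rat number occurs once.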

Other observations

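Within PH90, the rats with the highest means over the 10 genes, 106 and 61, had the lowest means of the markers of dividing cells. Rat 106 had a mean over the 10 genes of 0.971 and over the 6 dividing-cell markers of -0.871, rat 61 had 0.744 and -1.172, rat 87 had 0.542 and -0.328, rat 39 had 0.497 and -0.136, rat 43 had 0.454 and 0.582, and rat 111 had 0.197 and 0.397. The order was read from the data after the values were seen, in 6 rats, and was not tested. In PH30 rat 99, the highest over the 10 genes, had 0.411, between -0.353 and 3.089 for the group.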
